A study of Mus musculus with 39 samples.

Results

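Sites of the estrogen receptor (ER) on chromatin were compared between 7438 mouse mammary cells given estradiol (E2) and the same cells given E2 together with dexamethasone (Dex). The sites come from ChIP-seq, in which DNA bound by a receptor is pulled down with an antibody and sequenced, and each list holds the places where the authors called the receptor present. The members are all sites of 2 lists of 150 bp sites, the ER list named Both (11982 sites) and the ER list named E2 (7136 sites). They are 19118 of the 110608 sites in the 24 lists used, which belong to 24 of the series' 39 samples. A site is called shared where it overlaps a site of the other list by at least 1 bp, Both-only where it is in the Both list alone, and E2-only where it is in the E2 list alone. Strength is the percentile of the highest tag density within the site's own list, from the weakest site at 0 to the strongest at 100.

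7438 cells express GR (the glucocorticoid receptor) fused to GFP and ER fused to a Cherry fluorescent protein, both under tetracycline-regulated promoters. Tetracycline was withdrawn 24 h before the hormones, and Dex and E2 were given at 100 nM each for 30 min. These promoters drive introduced, tagged receptors. Each treatment of 7438 had 1 list in use, so differences between the treatments have no replicate check in 7438, and their intervals cover counting error only. The same treatments were given to 7438 Afos cells, which carry Afos in addition and had 2 lists for each receptor and treatment. A-Fos, a name the labels leave unexplained, is a dominant-negative inhibitor of DNA binding by AP-1. Sequencing depth is unknown, since the lists carry no read totals.

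ER and GR are steroid-activated transcription factors of the nuclear receptor family. E2 is the natural ligand of ER and Dex a synthetic ligand of GR. Once bound to hormone each receptor recognises its own DNA elements, and much of the binding of either falls on chromatin that other factors have already opened. In the mammary gland estrogen signalling is known for driving growth of the epithelium, and glucocorticoid signalling for its part in differentiation and milk protein expression.

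The treatment was read from the list names, because the sample label of the Both list says untreated. For both receptors the labels assign the list named Both to untreated cells and the list named unt to Dex and E2 together, while names and labels of the E2 and Dex lists match. The 7438 Afos lists carry no such conflict. Of the sites in the 2 Afos ER lists with both hormones, 80.6% and 90.7% overlapped the 7438 ER list named Both, and 0.525% and 1.29% overlapped the one named unt. Of the sites in the 2 Afos ER lists with E2, 73.3% and 80.8% overlapped the list named Both, and 66.1% and 75.6% the list named E2. The untreated Afos ER lists held 35 and 49 sites.

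Most E2 sites were also listed with both hormones, while the Both list held many further sites. In the Both list 6298 sites were shared and 5684, or 47.4% (exact Clopper-Pearson 95% interval 46.5 to 48.3%), were Both-only. In the E2 list 6299 sites were shared and 837, or 11.7% (10.99 to 12.5%), were E2-only. The Both list was 1.68 times as long as the E2 list. With only its 7136 strongest sites kept, 69.0% of the Both list was shared and 69.1% of the E2 list was, against 52.6% and 88.3% in full. Shared sites pair nearly one to one, so at equal lengths the 2 shares match by construction, and what the cut shows is their level.

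Sites in 1 list alone were mostly weak sites of that list. Shared sites had a median highest tag density of 25.3 in the Both list, at percentile 67.9 (interquartile range 44.6 to 85.5). Both-only sites had 14.4, at percentile 31.9 (15.1 to 52.7). In the E2 list shared sites had 18.4, at percentile 55.1 (30.5 to 77.8), and E2-only sites 11.8, at percentile 18.3 (7.91 to 34.1). The gap of shared over one-list sites was 36.0 percentile points in the Both list and 36.8 in the E2 list. Each list has a lower limit of density, which bears on both the class and the rank of a site, so the gaps are a description. Ranked by the authors' z-score in place of tag density, the gaps were 34.9 and 35.1 points. With both lists taken from their median density upward, the gaps were 18.5 and 19.3 points. Percentiles stayed those of the full list there, so the kept sites span only its upper part and the gaps are smaller by construction. Both measures order sites much alike, with a Spearman correlation across sites of 0.887 in the Both list and 0.892 in the E2 list.

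The share of sites found in the other list climbed with strength in each of 10 classes of equal size, from the weakest (class 1) to the strongest (class 10). In the E2 list it went from 64.1% in class 1 through 90.6% in class 5 to 99.6% in class 10. In the Both list it went from 19.1% in class 1 through 45.6% in class 5 to 93.8% in class 10. Class 10 held 3 E2-only sites out of 714 and 74 Both-only sites out of 1198. A strong E2 site was thus nearly always present with both hormones, while a set of strong sites was listed only with both hormones. Both lists end at a limit near 10 in highest tag density (10.2 in the Both list, 10.0 in the E2 list) and near 15 in z-score. The weakest Both-only sites, chr11:83708920-83709070 and chr12:32491633-32491783, stood at 10.2, just inside that limit. The weakest E2-only sites, chr7:108142438-108142588 and chr16:57425369-57425519, stood at 10.0. Whether a one-list site lay just under the limit of the other list was not tested.

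**Figure D1:**
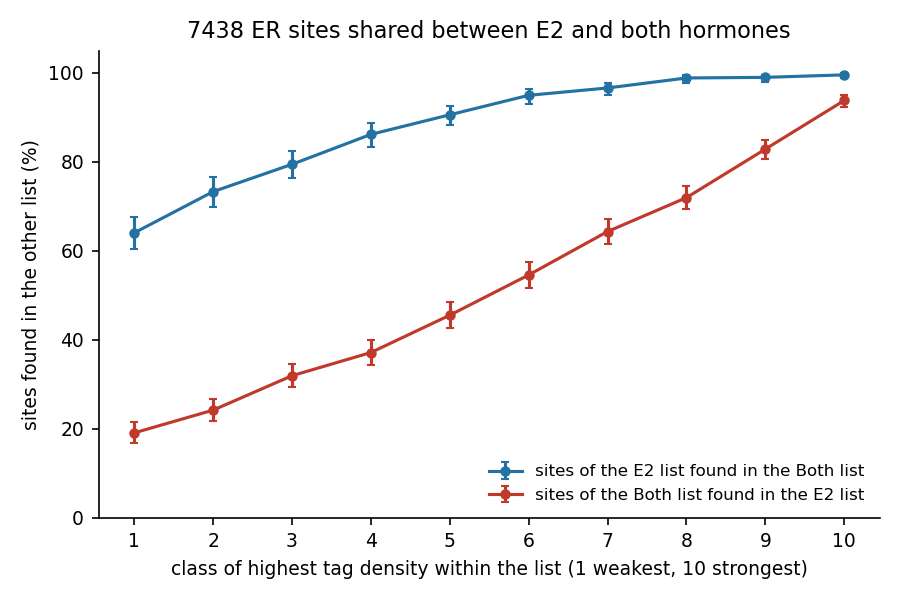
Share of ER sites found in the other list (y axis, %) in 10 classes of highest tag density within each list (x axis), with exact 95% intervals as bars. The E2 list climbs from 64.1% to 99.6% and the Both list from 19.1% to 93.8%.

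The strongest shared sites carried high densities in both treatments. The first, chr12:16797346-16797496 (mm9, as are all positions here), had a highest tag density of 652 in the Both list and 329 in the E2 list. The next, chr17:34347544-34347694, had 440 and 320, and chr6:66485016-66485166 had 438 and 299. The remaining ones of the 5 were chr11:79592192-79592342 (413 and 374) and chr6:147073655-147073805 (423 and 291). All 5 overlapped a GR site in the lists named Both and E2, and 2 of the 5 also in the list named Dex. All 5 were present in the 4 Afos ER lists with E2 or with both hormones.

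The strongest Both-only sites were in most cases strong GR sites. At chr2:157948802-157948952 the ER density with both hormones was 188, and GR had 147 with Dex and 183 with both hormones. At chr2:167677250-167677400 ER had 185, and GR had 547 with Dex and 446 with both hormones. The fourth, chr17:28649853-28650003, had an ER density of 134 and sat on the GR site of highest density in the Dex list (759). These 3 sites appeared in both Afos ER lists with both hormones, at 65.0 and 30.9 for the first, 109 and 40.7 for the second, and 96.3 and 33.9 for the chromosome 17 site. In the Afos lists with E2 the second was present once (20.1) and the other two in neither.

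Among these 5, 2 sites differed from that pattern. The third, chr7:148378356-148378506, had an ER density of 171 but was in no GR list and no Afos list. It was the site of highest density (102) in the 7438 ER list named unt. The fifth, chr7:26566389-26566539, had 113, yet a site of the E2 list started 225 bp away and all 4 of the Afos lists with E2 or both hormones held it. It is Both-only by the overlap rule and would be shared if centres within 500 bp counted as a match. Afos sites are at least 251 bp wide, and whether they mark this site or its neighbour was not tested.

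The strongest E2-only sites lay close to a Both site. The first, chr17:75509892-75510042, had a highest tag density of 86.4 with E2, and the nearest Both site started 342 bp away. For chr16:3236089-3236239 (72.2) the distance was 678 bp, for chr1:74116117-74116267 (51.5) 251 bp, and for chr13:70729596-70729746 (37.3) 248 bp. Of the 10 E2-only sites at or above percentile 80, 8 had a Both site within 1000 bp, and 5 had a z-score under percentile 20 of the list. Among the 1417 shared sites of the E2 list in that range, 0.353% had such a low z-score. The first site stood at percentile 97.8 by density and 11.5 by z-score. Density and z-score thus disagreed at strong E2-only sites in a way they did not at strong shared sites. All 5 of the strongest E2-only sites, of which these are 4, were present in both Afos ER lists with E2. Of these 5, 3 were also in the 2 Afos ER lists with both hormones, and 1 was in neither.

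Most one-list sites lay well away from any site of the other list. The nearest E2 site to a Both-only site was a median of 32251 bp away, and 375 of the Both-only sites (6.60%) had one within 1000 bp. The nearest Both site to an E2-only site was a median of 13012 bp away, and 135 (16.1%) had one within 1000 bp. Those 135 stood at percentile 35.1 by density and 7.87 by z-score, against 17.0 and 21.9 for the other E2-only sites. The 375 close Both-only sites stood at 44.7 by density and 14.9 by z-score, against 30.9 and 33.6 for the others. In the 6307 overlapping pairs the starts differed by a median of 10 bp (interquartile range 4 to 18 bp). They differed by more than 75 bp in 79 pairs (1.25%).

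The share of one-list sites on each chromosome was set against the list-wide share, 47.4% Both-only and 11.7% E2-only. Both-only sites were 42.6% of the Both list on chromosome 11 (39.6 to 45.7%) at the low end, and 54.8% on chromosome X (42.7 to 66.5%) at the high end, where the list held 73 sites. E2-only sites ranged from 7.82% of the E2 list on chromosome 2 (5.74 to 10.3%) to 15.5% on chromosome 13 (11.2 to 20.7%). These are the ends of all chromosomes compared. The intervals of chromosomes X and 13 held the list-wide share, and those of chromosomes 11 and 2 lay below it. On chromosome 18, 53.7% of 294 Both sites were Both-only (47.9 to 59.5%), an interval above the list-wide share. No allowance was made for the number of chromosomes compared.

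Shared sites kept much of their order between treatments. The Spearman correlation of the 2 percentiles over the 6307 pairs was 0.738 by density and 0.698 by z-score, a description across sites of 1 list per treatment. The percentile was higher with both hormones at 4396 pairs (69.7%), with a median difference of 5.92 points (interquartile range −1.88 to 20.7). It was at least 20 points higher at 1639 pairs (26%) and at least 20 points lower at 406 (6.44%). A percentile in the Both list is set against 5684 Both-only sites as well, which were mostly weak. Ranked among shared sites alone, the counts at 20 points or more were 928 up (14.7%) and 938 down (14.9%), and the median difference was −1.18 points.

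The shared sites with the largest differences in rank differed in their strength in the Both list and in the GR found there. The site at chr8:129331336-129331486 had a highest tag density of 79.5 with both hormones and 10.1 with E2, a difference of 95.04 percentile points. It carried GR at 223 with Dex and 156 with both hormones. At chr2:152646150-152646300 ER had 55.8 and 10.3, with GR at 321 with Dex and 215 with both hormones. Of the 5 sites that stood most above their E2 rank, 5 overlapped GR with both hormones and 4 overlapped GR with Dex. At the other end, chr11:113595065-113595215 had 11.3 with both hormones and 27.7 with E2, a difference of −64.5 points, and chr4:43706780-43706930 had 11.1 and 22.3. Of those 5, 1 overlapped GR with both hormones and another overlapped GR with Dex. By strength in the Both list the higher 5 fell in classes 9 and 10 and the lower 5 in classes 1 and 2. Over all shared sites of classes 9 and 10, GR with both hormones was at 54.5% and 84.5%, and GR with Dex at 22.8% and 27.7%. In classes 1 and 2 the shares were 14.0% and 13.4%, and 13.6% and 12.7%. None of the lower 5 was in both Afos ER lists with both hormones, and 3 of these 5 were in neither Afos ER list with E2.

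The difference in rank of shared pairs was larger where GR was listed with Dex and with both hormones. At the 1071 pairs with GR both with Dex and with both hormones, the median difference in percentile was 9.64 points, and 35.6% stood at least 20 points higher. At the 1191 pairs with GR with both hormones but not with Dex, it was 5.33 points and 24.2%. At the 3996 pairs without GR it was 5.42 points and 24.0%. The remaining 49 pairs had GR with Dex but not with both hormones, and there it was −0.121 points and 18.4%. The second set had less room to stand higher, at a median E2 percentile of 83.4 against 47.3 for the pairs without GR. Ranked among shared sites alone, 25.7% of the first set stood at least 20 points higher and 8.68% at least 20 lower. In the second set 19.2% and 2.85% did, and 10.5% and 19.9% of the pairs without GR. Pairs with a GR Dex site had the larger median difference in 10 of 10 classes of E2 strength. In class 1 it was 49.4 points against 27.3 for pairs without a GR Dex site, in class 5 18.4 against 10.1, and in class 10 0.767 against 0.293, where little room is left above.

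**Figure D2:**
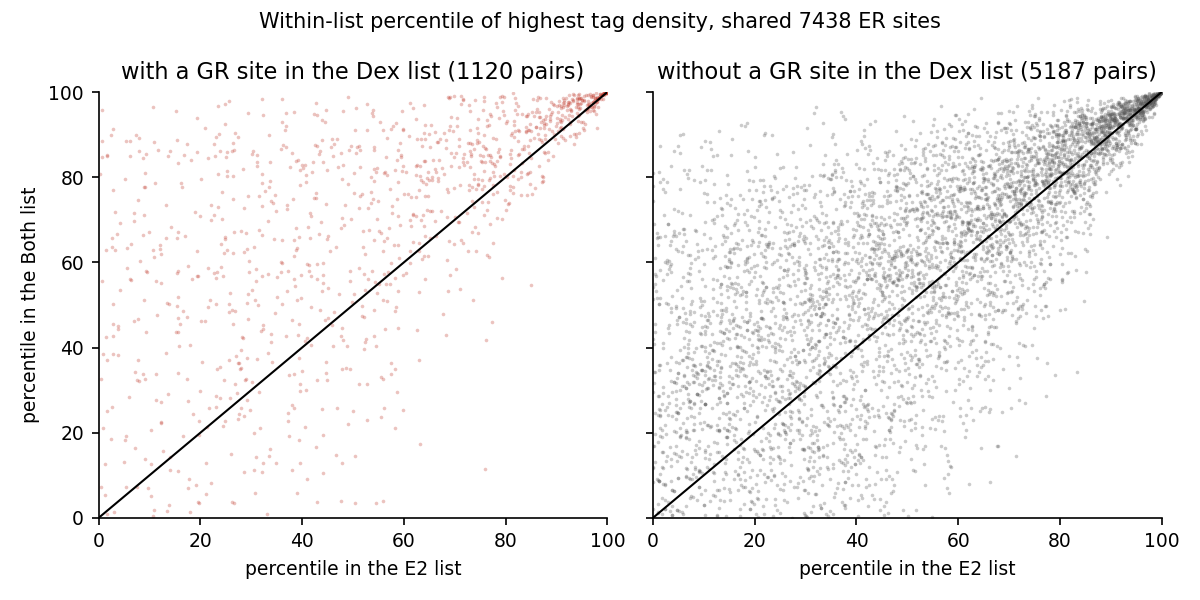
Percentile of highest tag density in the E2 list (x axis) and in the Both list (y axis) of each shared pair, for 1120 pairs with and 5187 pairs without a GR site in the 7438 Dex list; the line marks equal percentiles. Points lie above the line more often than below it in both panels, and at the 1071 pairs with GR in the Dex and Both lists the median difference is 9.64 points.

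GR occupied Both-only sites at least as often as shared ones, although Both-only sites were weaker. GR with both hormones was present at 38.9% of Both-only sites (37.6 to 40.2%) and 35.9% of shared sites, over a background of 37.3% of all Both sites. GR with Dex alone was present at 33.3% of Both-only sites (32.1 to 34.6%) and 17.8% of shared sites (16.8 to 18.7%), over 25.2% of all Both sites. At E2-only sites GR with both hormones was present at 9.32% (7.44 to 11.5%) and GR with Dex at 9.68% (7.76 to 11.9%). The background in the E2 list was 32.6% and 16.7% of all sites. GR with E2 alone, a list of 326 sites, was present at 0.440% of Both-only, 0.717% of E2-only and 3.08% of shared sites.

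At matched ER strength the Both-only sites stood further above the shared ones. GR with Dex was present at 22.6% of Both-only and 13.6% of shared sites in class 1 of the Both list, and at 78.4% and 27.7% in class 10. GR with both hormones was present at 21.6% and 14.0% in class 1 and at 93.2% and 84.5% in class 10. The mean difference over the 10 classes was 26.1 points for GR with Dex and 24.3 points for GR with both hormones, against 15.6 and 3.06 points without regard to strength. With the lists cut to equal length the differences were 25.9 and 16.1 points. The size of the GR difference thus moved with how strength and list length were treated, and its direction did not under these settings. Read by the sample label, which puts the 373 sites of the list named unt in place of the Both list, the direction turned, to −36.7 points for GR with Dex and −43.5 points for GR with both hormones.

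**Figure D3:**
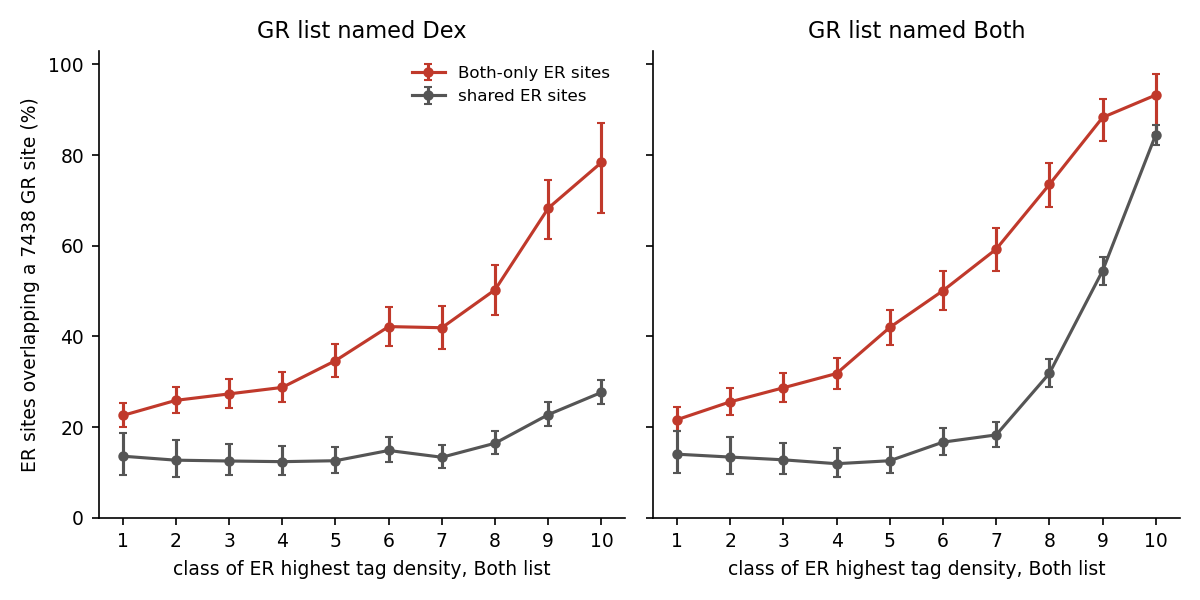
Share of ER sites of the Both list that overlap a 7438 GR site (y axis, %) in 10 classes of ER strength (x axis), for the GR list named Dex (left) and the GR list named Both (right), with exact 95% intervals as bars. With GR Dex, class 10 reads 78.4% for Both-only and 27.7% for shared sites.

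Splitting the classes by which hormones gave GR there separated them further. Of the Both-only sites, 1810 (31.8%) had GR with Dex and with both hormones, at a median ER percentile of 44.0. Another 402 (7.07%) had GR with both hormones but not Dex, at 61.6, and 3387 (59.6%) had no GR in either list, at 24.95. Of the shared sites 1070 (17.0%) were in the first set, 1188 (18.9%) in the second and 3991 (63.4%) had no GR. GR with Dex but not with both hormones was found at 85 Both-only and 49 shared sites. Of the E2-only sites 745 (89.0%) had no GR. Read the other way, 62.8% of the 2880 Both sites with GR in both lists were Both-only, as were 25.3% of the 1590 with GR only with both hormones and 45.9% of the 7378 without GR. Of the 74 Both-only sites in class 10, 58 had GR in both lists, 11 with both hormones only, and 5 had none. Over all strengths within the ER Both list, sites with GR in both GR lists were thus mostly Both-only. Sites with GR only with both hormones were mostly shared. In class 10 alone the first set was mostly shared as well, with 15.8% of its 367 sites Both-only. There 1.69% of the 652 sites with GR only with both hormones and 2.82% of the 177 without GR were Both-only. Of all 12084 GR Dex sites, 15.7% had a Both-only ER site.

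Both-only ER sites were most frequent at the strongest GR Dex sites. Along 10 classes of density in the GR Dex list, the share of GR sites with a Both-only ER site went from 5.09% in class 1 to 10.0% in class 5, 25.4% in class 9 and 49.0% in class 10. The share with a shared ER site went from 4.27% in class 1 to 16.0% in class 10. E2-only ER sites were at 0.493% of class 1 and 0.165% of class 10, which is 2 of 1209 sites. The GR Dex sites under Both-only ER sites stood at a median percentile of 77.9 in their list, those under shared sites at 63.1 and those under E2-only sites at 46.0. For GR with both hormones the medians were 68.8, 55.1 and 42.0.

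**Figure D4:**
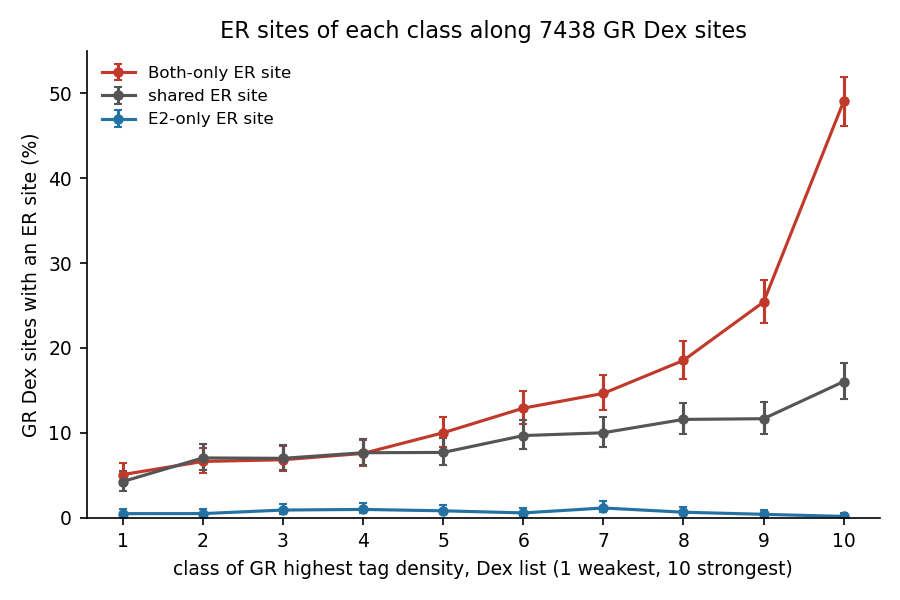
Share of 7438 GR Dex sites that overlap an ER site of each class (y axis, %) in 10 classes of GR strength (x axis), with exact 95% intervals as bars. Both-only ER sites go from 5.09% to 49.0%, shared ER sites reach 16.0%, and E2-only sites end at 0.165%.

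ER with Dex alone was rarely listed at these sites. The 7438 ER list named Dex held 10149 sites, and these overlapped 1.20% of Both-only, 1.24% of shared and 1.31% of E2-only sites. The ER list named unt (373 sites) overlapped 0.827%, 2.51% and 2.39%. Without regard to strength the 3 classes thus hardly differed in their overlap with the Dex list. In class 9 of the Both list it was 3.90% of Both-only (1.70 to 7.54%) and 1.11% of shared sites (0.554 to 1.97%). In class 10 it was 2.70% and 1.69%, and the mean difference over 10 classes was 0.644 points.

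The 7438 Afos lists gave a separate reading of the same classes with 2 lists per treatment. Shared sites were found at 61.2% and 55.2% in the 2 Afos ER lists with E2 and at 48.4% and 28.2% in those with both hormones (58.2 ± 4.26% and 38.3 ± 14.3%, mean ± SD, n = 2 lists each). E2-only sites were found at 33.1% and 23.4% with E2 and at 9.44% and 3.70% with both hormones (28.3 ± 6.84% and 6.57 ± 4.06%). The lists of the 2 treatments did not overlap for either class. The difference was −19.9 points for shared and −21.7 points for E2-only sites. With the strongest 2564 sites of each Afos list it was −8.87 and −6.81 points. Without replicate 2 it was −12.8 points for shared sites. With all sites and lists the two-sided exact permutation p was 0.333 for both, the smallest that 2 lists against 2 can give.

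Both-only sites went the other way in same-numbered lists, within the spread of the replicates. They were found at 13.0% and 8.11% with E2 and at 33.4% and 11.3% with both hormones (10.5 ± 3.43% and 22.4 ± 15.6%, n = 2 lists each). The higher E2 list exceeded the lower list with both hormones. The difference of 11.8 points had a two-sided exact permutation p of 0.667. It was 20.4 points without replicate 2 and 3.22 without replicate 1, and the second list with both hormones was the shortest of the 4, at 2564 sites against 4687 to 6046 in the other 3. With the strongest 2564 sites of each list the difference was 9.88 points and the lists no longer overlapped (two-sided exact permutation p = 0.333). Set against E2-only sites in the same list, Both-only sites were found 0.392 and 0.346 times as often with E2 and 3.54 and 3.06 times as often with both hormones. The ratios of the lists of the 2 treatments did not overlap (two-sided exact permutation p = 0.333).

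By site, 1427 Both-only sites (25.1%) were in an Afos list with both hormones and in no list with E2, and 303 (5.33%) were the reverse. Of the E2-only sites 12 were in a list with both hormones and none with E2, and 227 (27.1%) were the reverse. The remaining sites were mostly in none of the 4 lists, 3458 of the Both-only (60.8%) and 528 of the E2-only sites (63.1%). The untreated and Dex lists of Afos ER held at most 0.478% of either class.

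The strongest Both-only sites recurred with both hormones in Afos cells. The 74 of class 10 were found at 90.5% and 71.6% with both hormones and at 16.2% and 10.8% with E2, a difference of 67.6 points (two-sided exact permutation p = 0.333, n = 2 lists each). Of these 74, 56 were in a list with both hormones and none with E2, and 0 were the reverse. Shared sites of class 10 were found at 89.7% and 75.9% with both hormones and at 87.3% and 85.5% with E2, which overlap (difference −3.60 points, two-sided exact permutation p = 1). In class 1, Both-only sites were found at 14.7% and 1.76% with both hormones and at 11.6% and 7.45% with E2.

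**Figure D5:**
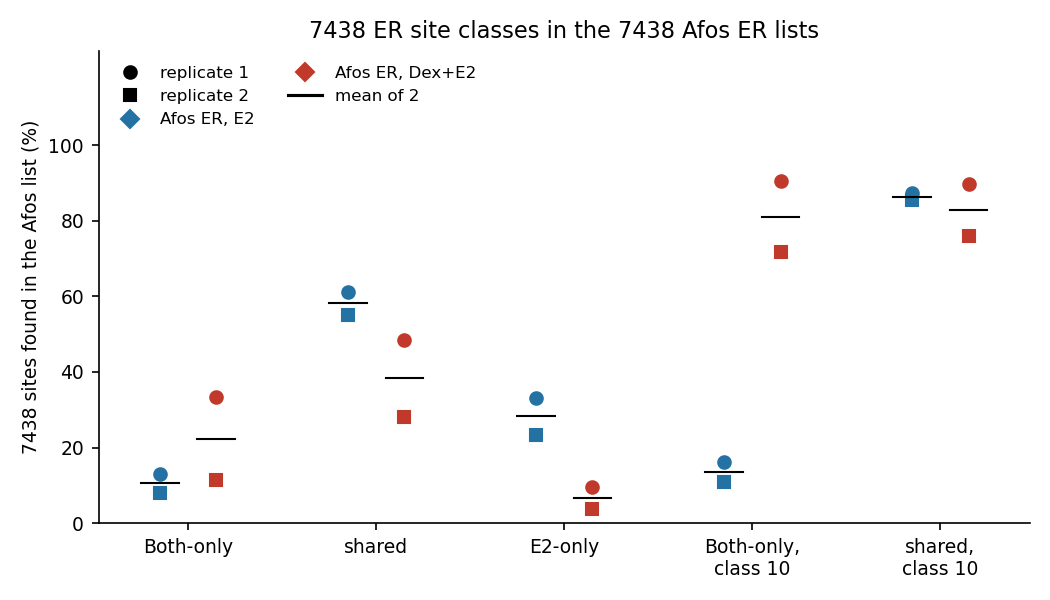
Share of 7438 ER sites of each class found in the 7438 Afos ER lists (y axis, %), 1 point per list and a line at the mean of 2, with class 10 the strongest of 10 classes of the Both list. Both-only sites of class 10 read 90.5% and 71.6% with both hormones and 16.2% and 10.8% with E2.

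The recurrence of Both-only sites differed with GR. Both-only sites with GR both with Dex and with both hormones were found at 2.54% and 1.77% in the Afos ER lists with E2 and at 35.0% and 16.7% in those with both hormones. Those with GR with both hormones but not Dex were found at 11.2% and 5.97% with E2 and at 65.9% and 28.9% with both hormones. Those without GR were found at 19.1% and 11.9% with E2 and at 29.1% and 6.55% with both hormones. The lists of the 2 treatments were apart for the sites with GR and overlapped for those without. Sites with GR were also stronger in the Both list, at percentiles 44.0 and 61.6 against 24.95, and the part of that strength was not tested.

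GR in Afos cells gave the same order of the classes as in 7438. GR with Dex was present at 29.1% and 22.2% of Both-only, 12.1% and 7.73% of shared, and 6.21% and 3.46% of E2-only sites. GR with both hormones was present at 51.3% and 41.2%, at 41.7% and 30.6%, and at 9.32% and 9.32%. GR with E2 alone was present at 7.08% and 1.87% of shared sites and at 0.352% and 0% of Both-only sites.

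Shared sites whose percentile differed in 7438 differed the same way in percentile in Afos lists, while their presence did so in part. The Afos lists differ in length, so percentiles are also given among the shared pairs present in both lists of a number. Among shared pairs that stood at least 20 points lower with both hormones, 49.8% and 41.1% were in the Afos lists with E2, and 10.1% and 3.45% in those with both hormones. Among those at least 20 points higher, 49.8% and 39.1% were in the lists with E2, and 54.0% and 27.5% in those with both hormones. Where a site was in both Afos lists of the same number, its percentile was lower with both hormones by a median difference of −30.3 (41 sites) and −33.5 points (12 sites) in the first set. In the second set the median difference was 8.74 (653 sites) and 3.20 points (325 sites). The other shared pairs gave −6.73 and −14.1 points. Ranked only among the shared pairs present in both lists, an alternative chosen after seeing the data, the first set gave −18.8 and −19.8 points, the second 17.9 and 19.8, and the others −3.61 and −3.24.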

How the data were processed

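The members, site classes and alternatives were chosen with earlier results of these data known. ChIP-seq site lists of 7438 cells (8 lists) and 7438 Afos cells (16 lists) were used; the other samples were not analysed here. Per the submitters' processing notes, the build was mm9 and CASAVA 1.8 was used. Which aligner, peak caller, control and threshold were applied is not given in the sources used here. Per the file headers, each site carries a highest tag density, which is the authors' signal and of unstated scaling, and a z-score, the authors' score. The 7438 lists held sites of 150 bp, with site numbers up to 16496 (Both) and 10695 (E2), so sites had been removed before they were deposited. Afos sites were at least 251 bp wide and the lists had lower limits of another kind, so values were ranked only within a list.

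Sites overlapped from 1 bp. Percentiles, 10 equal classes, exact Clopper-Pearson 95% intervals and distances between starts were computed in Python 3.11.15 with pandas 2.3.3, NumPy 2.4.6 and SciPy 1.17.1, with matplotlib 3.10.9 for figures. Overlap code was checked on simulated lists. The only test was a two-sided exact permutation test over Afos lists (2 against 2). The labels do not say that replicates were separate cultures, so p-values measure only the spread between these lists. Named sites are the 5 strongest of each one-list class and of shared sites (by the lower of the 2 percentiles), the 5 shared sites with the largest differences in percentile each way, and the 2 weakest of each one-list class. Whether positions count from 0 or 1 is not stated, and positions are printed as the lists give them. Alternatives were a 75 bp overlap, centres within 500 bp, sites from the median upward, equal numbers, the z-score, the labelled Both list, replicates left out and a replicate block. Motifs, sequences and gene annotation in mm9 were not used here.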

Additional observations from a re-analysis of the deposited data

Results flagged for a closer look

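The ER list with both hormones was longer than the list with E2 in 7438 but not in 7438 Afos. The ratio of the lengths was 1.68 in 7438, and 0.977 and 0.547 in same-numbered lists of 7438 Afos. The first Afos ratio is close to equal lengths, and the 2 Afos lists with both hormones themselves held 5905 and 2564 sites. Site widths and lower limits were not the same in 7438 Afos as in 7438, and the difference was not tested.

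The 7438 ER list named Dex, a treatment without the ER ligand, held 10149 sites, against 373 in the list named unt. The 2 Afos ER lists with Dex held 61 and 41 sites. The 7438 list overlapped 1.20% of Both-only and 1.24% of shared sites. Of its own sites 2.32% overlapped the 7438 GR list named Dex and 1.43% the ER list named Both. Its median z-score was 30.3, against 51.0 in the ER list named Both and 50.9 in the one named E2.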

How the results depend on the processing

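Each treatment of 7438 had 1 list, so nothing in 7438 was tested over replicates, and depth is unknown. Over 14 results, 86 alternative values were computed, of which 48 stayed within the counting interval of the main value or, for Afos, on its side of 0. The 48 include the replicate-block values, which equal the main ones by construction. Of the 86, 13 had the other sign than the main value. For 9 of these 13, all ER with Dex, the main value was itself within its interval of 0. Motifs were not run, since no mm9 sequence was used here.

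A 75 bp overlap gave 87.3% of E2 sites found in the Both list. Centres within 500 bp gave 89.5% of E2 sites and 53.9% of Both sites found. Differences from shared sites were then −28.8 (GR with both hormones) and −11.2 points (GR with Dex) at E2-only sites, and 14.0 (GR with Dex) and −0.460 points (ER with Dex) at Both-only sites. From the median density upward, rank gaps were 18.5 and 19.3 points, GR with both hormones at E2-only sites stood at −39.0, GR with Dex at Both-only sites at 18.5 and ER with Dex at 0.974 points. Equal list lengths gave 69.1% and 69.0% found, rank gaps of 17.7 (Both) and 41.1 points (E2), and −30.7 points for GR with both hormones at E2-only sites. Percentiles in a cut list stayed those of the full list, so its rank gap spans a shorter range than in the main values. At Both-only sites equal list lengths gave 16.1 (GR with both hormones), 25.9 (GR with Dex) and 0.545 points (ER with Dex). Means over 10 classes of strength were 24.3, 26.1 and 0.644 points. By z-score the median rank difference of shared pairs was 5.40 points, and among shared sites alone, an alternative chosen after seeing the data, it was −1.18. With the GR lists of 7438 Afos, also added later, GR with both hormones at Both-only sites stood at 10.1 points and GR with Dex at E2-only sites at −5.02.

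Read by the sample label (373 sites for both hormones), 2.54% of E2 sites and 48.8% of those 373 sites were shared, and rank gaps were 17.6 and 5.30 points. GR at sites of that list alone turned to −43.5 (both hormones) and −36.7 points (Dex), and ER with Dex was −0.725. At E2-only sites the values were −49.9, −64.5 and −13.4 points. The Afos difference at Both-only sites turned to −0.524 points.

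Leaving out a replicate gave an Afos difference of 3.22 to 20.4 points for Both-only, −23.7 to −19.7 for E2-only and −27.0 to −12.8 for shared sites, with no test. In the replicate block same-numbered lists were paired, which cannot change the mean differences of 11.8, −21.7 and −19.9 points. The exact p over sign flips of the pairs was 0.5, the smallest 2 pairs can give. The labels do not say what a shared number marks.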
